A study of Mus musculus with 2 samples.

Results

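Cytosolic RNA and DNA sensors are the proteins by which a cell recognises viral or misplaced nucleic acid in its interior. The 9 genes described here are Ddx58 (RIG-I), Ifih1 (MDA5), Dhx58 (LGP2), Mavs, Tmem173 (STING), Mb21d1 (cGAS), Zbp1, Trex1 and Adar. They were taken by symbol from a table of 21983 gene entries, and all 9 were present, Tmem173, Mb21d1 and Ddx58 under these older symbols. RNA was sequenced from primary chondrocytes, the cells of cartilage, of wild-type (WT) mice. The control culture was given phosphate-buffered saline (PBS), and the treated culture recombinant mouse Sparcl1, a secreted matricellular protein, at 50 ng/ml. Both were kept for 3 days, and each yielded 1 library. The age, sex and number of the animals and the cartilage used are not stated in the labels. The question is which of these genes differed in level between the culture with added Sparcl1 and the control.

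RIG-I and MDA5 bind double-stranded RNA in the cytosol and signal through MAVS, an adaptor on mitochondria. LGP2 belongs to the same helicase family but lacks the signalling domains and modulates the other family members. cGAS binds DNA and makes the messenger cGAMP, which is bound by STING, an adaptor in the endoplasmic reticulum. Both routes activate the kinase TBK1 and the transcription factor IRF3 and lead to type I interferon, which in turn raises the transcripts of many sensors through the factor ISGF3. ZBP1 senses Z-form nucleic acid and can start necroptosis. The exonuclease TREX1 removes cytosolic DNA, and the editing enzyme ADAR changes adenosine to inosine in double-stranded RNA, so both limit activation of the sensors.

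The 3 RIG-I-like receptor genes and Zbp1 stood at least 1.5-fold lower in the Sparcl1-treated library, while the 2 adaptor genes were not lower. Dhx58 was 1.94-fold lower, Ifih1 1.81-fold, Zbp1 1.63-fold and Ddx58 1.5-fold. The value of Ddx58 lies on that limit and falls short of it with total counts as library sizes. Of all 13317 genes tested, 2.35% were lower by 1.5-fold, and at 2-fold 0 of the 9 genes were called. Adar was 1.23-fold lower, Trex1 1.14-fold and Mb21d1 1.13-fold, whereas Mavs was 1.07-fold and Tmem173 1.19-fold higher. A single library per condition gives no measure of how cultures vary. No test was therefore made, and each difference compares these libraries only.

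The control library held 29858851 counts and the Sparcl1-treated library 26871933. Ratios are of CPM, counts brought to a shared library size by TMM scaling, Sparcl1-treated over control, on the log2 scale. Each has an exact 95% Clopper-Pearson interval that covers the counting error of reads only. A gene was called higher or lower by size with at least 20 summed counts, a 2-fold ratio and an interval that excludes 0. All 13 chondrocyte markers on the list used were detected in both libraries, among them Col2a1, the main cartilage collagen (254556 and 199410 counts). All 15 macrophage markers were detected too, with 7 ratios below 1, 8 above and a median log2 ratio of 0.03. Their summed level was 2733 CPM in the control and 3042 CPM after Sparcl1, and without Lyz2, the most abundant of them, 1406 and 1401 CPM. The summed level of the chondrocyte markers was 13504 and 11838 CPM, and that of 8 fibroblast markers 23291 and 19226 CPM. The chondrocyte markers had 11 ratios below 1, 2 above and a median log2 ratio of -0.24. For the fibroblast markers these values were 5, 3 and -0.19. Of 7 lymphocyte markers 2 were detected in each library, at most at 15 counts (Cd79a, 15 and 0), and of 5 plasmacytoid dendritic cell markers 2 in the control and 1 after Sparcl1, at 4 counts or fewer. Fewer cells of a type and less RNA per cell cannot be told apart in such bulk libraries, and the part of each cell type in the results below was not tested.

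Sequences around the start sites were searched for letters of interferon-type elements, since several of these genes were low together. The interferon-stimulated response element (ISRE), bound by ISGF3 and by interferon regulatory factors, contains a pair of GAAA repeats. RefSeq windows of GRCm38.p6 ran from 250 bases before to 50 bases after each start site. They were used for 6 of the 9 genes, namely Ddx58, Ifih1, Mavs, Mb21d1, Trex1 and Adar. Dhx58, Tmem173 and Zbp1 had no window used here. GAAA, any 2 bases and GAAA again, searched on both strands, were found for 2 of the 6, Ddx58 and Ifih1, and in 3.44% of all 32851 windows. With any 1 base between the repeats, on either strand, Ddx58 and Adar held a match, as did 3.17% of all windows. These shares count windows, not genes, and the 6 genes have 9 windows, 1 each for Ddx58 and Ifih1 and 3 for Adar. The Ddx58 run (chr4:40239812-40239895, minus strand) spans 70 bases before to 14 after the start site, and the Ifih1 run (chr2:62646206-62646235, minus strand) and the Adar run (chr3:89730732-89730761, plus strand) lie just after theirs. Capitals mark the motifs, written 5′ to 3′ along the gene:
Ddx58: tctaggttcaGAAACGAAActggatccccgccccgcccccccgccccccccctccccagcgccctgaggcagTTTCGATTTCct
Ifih1: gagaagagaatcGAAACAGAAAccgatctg
Adar: gaagccttttcaagGAAACGAAAgtgaact

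In Ddx58 the motif with 1 base between the repeats began at position -60 relative to the start site, and the other, on the opposite strand, began at base 3 of the transcript, in an untranslated exon of the GENCODE M21 annotation. The Ifih1 motif began at base 33 of the transcript, within an exon. The Adar motif began at base 29 of the RefSeq transcript that starts farthest downstream of the 3 Adar windows, at a place that GENCODE M21 annotates as an intron of Adar. The palindromic letters TTCNNNGAA, the core of the interferon gamma-activated sequence, overlapped that Adar motif and were found in 8.30% of all windows and in no other member's. In the whole windows of Mavs and Mb21d1 neither ISRE-like motif was found. The matches of Ifih1 and Adar lie after the start site, so stretches before it are no like-for-like contrast. Shown are the 80 bases before the start sites of Mavs (chr2:131233983-131234062, plus strand) and Mb21d1 (chr9:78443238-78443317, minus strand):
Mavs: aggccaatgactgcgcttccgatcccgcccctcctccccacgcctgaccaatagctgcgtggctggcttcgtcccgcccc
Mb21d1: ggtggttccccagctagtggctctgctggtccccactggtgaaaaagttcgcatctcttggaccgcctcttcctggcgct

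A match describes letters in the window and is not a measurement of binding. The search was prompted by the genes that were low, and nothing about regulation is read from it.

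Dhx58, which encodes the regulatory family member LGP2, was counted 1289 times in the control and 613 times in the treated library, or 43.7 and 22.5 CPM. Its log2 ratio of -0.96 (95% counting interval -1.10 to -0.82) was the lowest of the 9 genes and lay just inside the 2-fold limit. Ifih1, the MDA5 gene whose product prefers long double-stranded RNA, had 1686 and 857 counts (57.2 and 31.5 CPM), a log2 ratio of -0.86 (-0.98 to -0.74). The intervals of Dhx58 and Ifih1 overlapped. Ddx58, the RIG-I gene whose product recognises short RNA with a 5′ triphosphate, was the most abundant member by counts, with 4295 and 2632 (146 and 96.8 CPM). Its log2 ratio was -0.59 (-0.66 to -0.52), and its interval met neither of the others.

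The receptors therefore differed unequally between the libraries, which is visible in their ratios to each other within a library. Ddx58 had 2.55 counts per Ifih1 count in the control (95% counting interval 2.41 to 2.70) and 3.07 after Sparcl1 (2.84 to 3.32). For Ddx58 over Dhx58 the count ratio was 3.33 (3.13 to 3.55) and 4.29 (3.93 to 4.70). In both pairs the control and Sparcl1 intervals did not overlap, so RIG-I transcripts made up more of the receptor transcripts in the Sparcl1-treated library.

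Mavs, the adaptor of RIG-I and MDA5, was counted 1595 and 1574 times (54.1 and 57.9 CPM). The log2 ratio was 0.10 (-0.00 to 0.20), so the interval reached down to equal expression. Dhx58 had 0.808 counts per Mavs count in the control and 0.389 after Sparcl1, and Ifih1 had 1.06 and 0.544. Tmem173, the cGAMP-binding adaptor, had 938 and 1030 counts (31.8 and 37.9 CPM) and a log2 ratio of 0.25 (0.12 to 0.38). It was the only member whose interval lay above 0 with this scaling.

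Mb21d1, the DNA sensor that makes cGAMP, was rare, with 345 and 281 counts (11.7 and 10.3 CPM). Its log2 ratio of -0.18 (-0.41 to 0.05) did not differ from equal expression beyond counting error. Tmem173 counts per Mb21d1 count were 2.72 (2.40 to 3.08) in the control and 3.67 (3.21 to 4.20) after Sparcl1. The 2 intervals did not overlap, so the transcript of the adaptor was more abundant relative to that of its sensor in the treated library. Zbp1, the Z-nucleic acid sensor, was the rarest member at 193 and 109 counts (6.54 and 4.01 CPM). Its log2 ratio was -0.71 (-1.06 to -0.36), an interval wide enough to include the values of all 3 RIG-I-like receptor genes.

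Adar, the editing enzyme, had 2454 and 1837 counts (83.2 and 67.5 CPM) and a log2 ratio of -0.30 (-0.39 to -0.21). Adar makes a long, interferon-inducible protein and a short constitutive one from different start sites, and counts per gene do not separate them. Trex1, the DNA exonuclease, had 720 and 583 counts (24.4 and 21.4 CPM) and a log2 ratio of -0.19 (-0.35 to -0.03). In GENCODE M21, 100% of the Trex1 exon bases (chromosome 9, 109057933 to 109059734) also belong to exons of Atrip, a DNA damage response gene on the same strand, and 16.8% of the Adar exon bases overlap Chrnb2, a receptor subunit gene on the opposite strand. Atrip had 601 and 518 counts (log2 ratio -0.10) and Chrnb2 had 49 and 33 (-0.45), so the values of Trex1 in particular are uncertain where counting split or dropped shared reads. Dhx58 and Mb21d1 share 4.31% and 4.87% of their exon bases with genes on the opposite strand that are not in the count table.

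**Figure D1:**
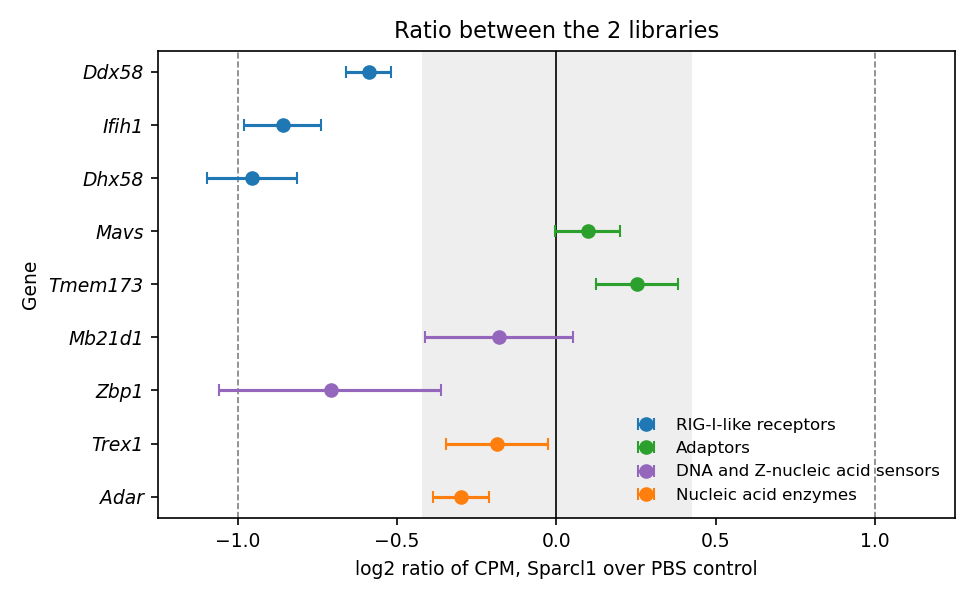
Log2 ratio of CPM (x axis), Sparcl1-treated library over PBS control, for each of the 9 genes (y axis), with 1 library per condition. Points are coloured by role, bars are 95% counting intervals, dashed lines mark the 2-fold limits, and the grey band holds the central 95% of log2 ratios of the 11194 genes that reach 200 summed counts. The points of the 3 RIG-I-like receptor genes and Zbp1 lie to the left of the band and those of the 2 adaptor genes to the right of 0. The bar of Mavs reaches 0.

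By the 2-fold rule 0 of the 9 genes were called in either direction, against 0.954% of 13317 genes called higher and 0.946% called lower. By the same rule at 1.5-fold, 4 of 9 were lower and 0 higher, against 2.35% and 2.32% of all genes. The 4 were Dhx58, Ifih1, Zbp1 and Ddx58. Ddx58 lay on the limit, and with total counts as library sizes its log2 ratio was -0.55 and only 3 of 9 were lower. Counting intervals lay wholly below 0 for 6 of 9 genes and above 0 for 1, against 21.6% and 20.1% of all genes. The median log2 ratio of the 9 was -0.30, beside -0.00 over all genes tested. Without Trex1 and Adar, whose exons overlap those of other measured genes, it was -0.59.

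All 9 genes had over 200 summed counts, the range in which log2 ratios are best fixed. For the 11194 genes that reach 200 summed counts, -0.42 and 0.42 bound the central 95% of log2 ratios. Of these genes 28 had a ratio as low as that of Dhx58 or lower, and 42, 71 and 114 as low as those of Ifih1, Zbp1 and Ddx58. Adar stood with the lowest 5.82% and Trex1 and Mb21d1 with the lowest 14.2% and 15.1%. At the other end, 27.8% of genes had a ratio as high as that of Mavs and 9.15% one as high as that of Tmem173. The order of the 9 genes thus ran from the edge of the distribution for the RIG-I-like receptors to the upper part of its centre for the adaptors.

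**Figure D2:**
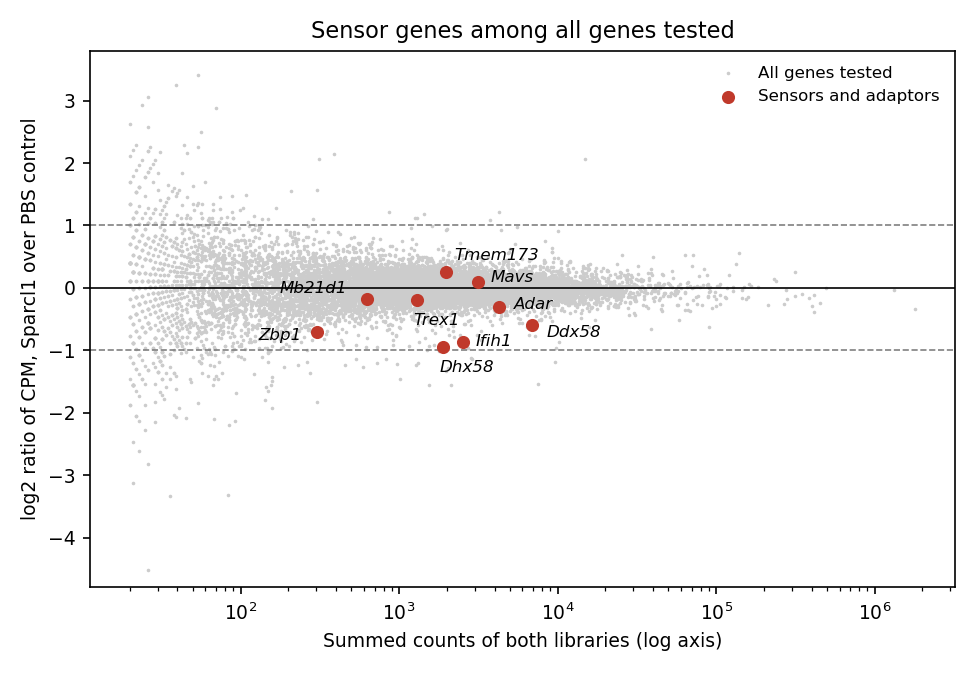
Log2 ratio of CPM, Sparcl1-treated over control (y axis), against the summed counts of both libraries (x axis, log scale) for the 13317 genes with at least 20 summed counts (grey) and the 9 sensor and adaptor genes (red). Dashed lines mark 2-fold, and Dhx58, Ifih1 and Ddx58 sit at the lower edge of the cloud at their abundance.

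To compare levels between genes, CPM were divided by the length of all annotated exons in kilobases. Trex1 (21.3 CPM per kb) and Ddx58 (20.7) stood highest in the control, with overlapping counting intervals. The place of Trex1 in either library is uncertain beyond counting error, since all its exon bases also belong to Atrip exons. Mavs (16.2), Dhx58 (13.4), Tmem173 (11.6), Adar (10.2) and Ifih1 (7.0) followed, each apart from its neighbours in that order by more than counting error. Mb21d1 (2.83) and Zbp1 (1.85) were lowest. Per length, the transcripts of RIG-I and of its adaptor were thus several times as abundant as that of the DNA sensor cGAS.

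In the Sparcl1-treated library Trex1 (18.7 CPM per kb) and Mavs (17.3) were highest, and Tmem173 (13.8) and Ddx58 (13.7) came next, each pair within counting error. Adar (8.32), Dhx58 (6.89), Ifih1 (3.86), Mb21d1 (2.5) and Zbp1 (1.14) followed in separate steps. Ddx58 thus stood above Mavs in the control, at 1.28 times its level per kb (1.21 to 1.35), and below it after Sparcl1, at 0.793 times (0.745 to 0.845). With the longest transcript as the length, Ddx58 was the highest member in both libraries, at 37.6 and 25.0 CPM per kb, and above Mavs (17.7 and 18.9) in each. That length also turned neighbours round in the control, where Dhx58 (18.1) then stood above Mavs (17.7) and Adar (14.1) above Tmem173 (13.8).

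**Figure D3:**
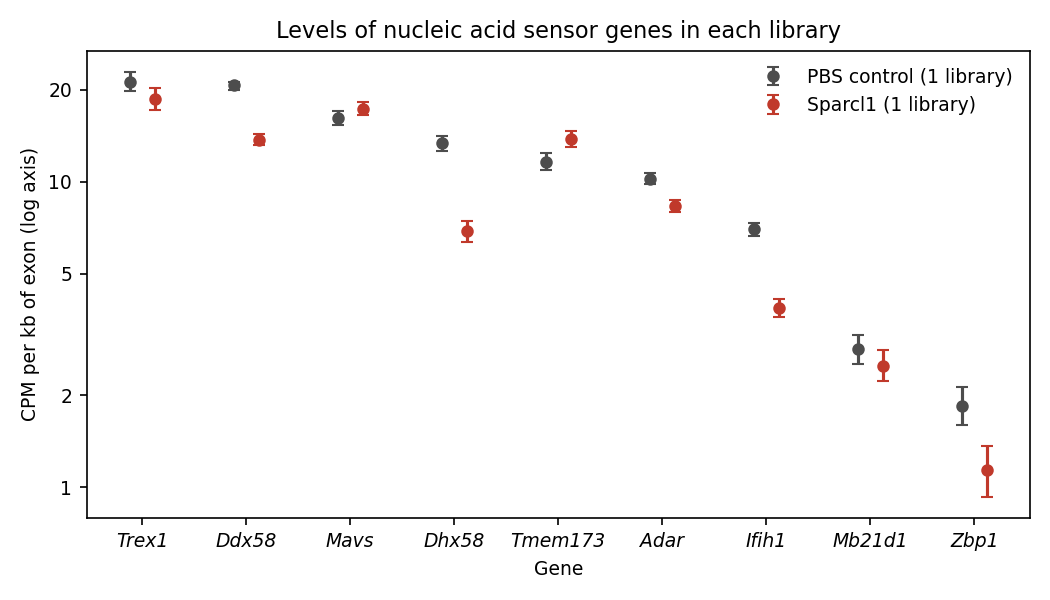
Level of each gene (x axis) in CPM per kilobase of exon (y axis, log scale) in the PBS control (grey) and the Sparcl1-treated library (red), with exact 95% Poisson intervals for counting error and genes in order of the control level. The red points of Ddx58, Dhx58, Ifih1 and Zbp1 lie clearly below the grey ones, and those of Mavs and Tmem173 above. The intervals of Mavs overlap between the libraries.

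The genes around the sensors were described from 9 lists of 108 genes, of which 93 had at least 20 summed counts. By the 2-fold rule 1 of the 93 was lower and 0 were higher, and at 1.5-fold 3 were lower and 1 was higher. The shares of all genes called by these rules were 0.946% and 0.954% at 2-fold and 2.35% and 2.32% at 1.5-fold. By these rules the lists lay near the background. Counting intervals lay wholly below 0 for 34.4% of the 93 and above 0 for 23.7%, against 21.6% and 20.1% of all genes tested. Whether an interval excludes 0 depends on read depth, which was not matched here. The median log2 ratio of the list genes was 0.01. The 1 gene past 2-fold was Irf7, the interferon regulatory factor that amplifies type I interferon, with 1985 and 843 counts (log2 ratio -1.12, -1.24 to -1.0).

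Among 22 partners of the RIG-I-like receptors and MAVS, the median log2 ratio was 0.01. Ddx60, a helicase linked to RIG-I signalling, was the lowest at -0.92 (360 and 176 counts). The ubiquitin ligase gene Rnf135 (Riplet), whose product activates RIG-I, was the highest at 0.30 (318 and 360). The ligase gene Trim25, chosen after its value was seen, stood at -0.32. Of the 22 genes 1 was lower by 1.5-fold and none higher.

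Partners and regulators of cGAS and STING had a median of 0.02 over 17 genes, with none past 1.5-fold. Their values ran from -0.17 for Zcchc3, a co-sensor of cGAS, to 0.39 for Rnf5, a ligase that marks STING for degradation. In the list of the TBK1 complex, IRF3 and IRF7 the median was 0.03 over 8 genes. The highest was Ikbke, the gene of the TBK1-related kinase, at 0.37 (772 and 922 counts), while Tbk1 (0.13) and Irf3 (0.12), named after their values were seen, were near equal in both libraries.

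Other nucleases and RNA-processing genes had a median of 0.06 over 12 genes, from -0.26 for Pnpt1, a mitochondrial RNA exonuclease, to 0.60 for Rnaseh2c, a subunit of the enzyme that removes ribonucleotides from DNA. Rnaseh2c was the 1 gene higher by 1.5-fold on these lists. The cell death partners of ZBP1 had a median of 0.06 over 6 genes. Ripk3, the kinase that binds ZBP1 in necroptosis, was at 0.38 (1275 and 1530 counts), the opposite direction to Zbp1, and Casp8 was lowest at -0.12.

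Other cytosolic sensors had a median of -0.01 over 16 genes and none past 1.5-fold. Eif2ak2, the RNA-activated kinase PKR, was lowest at -0.49 (3410 and 2241 counts), and Xrcc6, a DNA end-binding protein, was highest at 0.20. The endosomal nucleic acid receptors and their helpers had a median of -0.23 over 8 genes, with 7 ratios below 1 (50.4% of all genes tested had one) and none past 1.5-fold. Tlr9, the receptor for DNA in endosomes, was lowest at -0.44 (125 and 85 counts) and Ticam1, the adaptor of Tlr3, highest at 0.04.

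Interferon transcripts themselves were at or near 0. Of 10 type I and III interferon genes, 9 had no count in either library, Ifnb1 among them, which allows up to 3 counts, or 0.102 CPM in the control and 0.110 CPM after Sparcl1. Ifnz had 1 and 3 counts. The genes of the interferon receptor and ISGF3 reported here had a median of -0.02 over 6, with 3 ratios below 1 and 3 above (the median was 0.01 with total counts as library sizes). Stat2, a subunit of ISGF3 (4250 and 2318 counts, log2 ratio -0.76), was lower by 1.5-fold. Its DNA-binding subunit Irf9, named after its value was seen, was at -0.49, and the kinase gene Tyk2 was highest at 0.11.

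**Figure D4:**
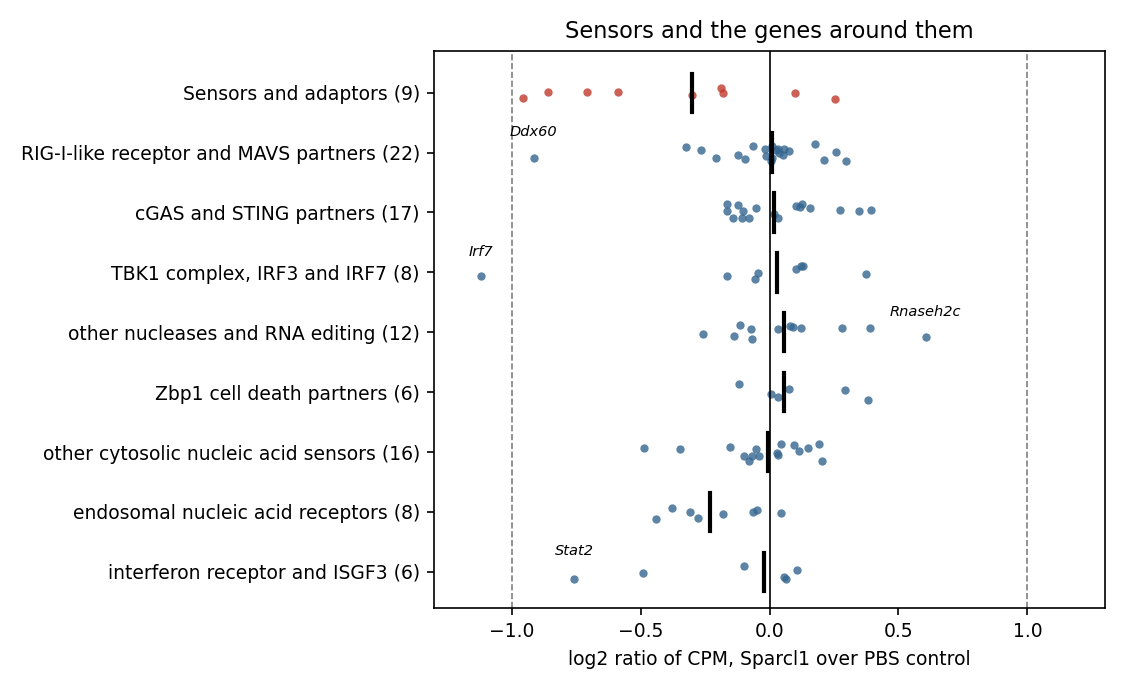
Log2 ratio of CPM, Sparcl1-treated over control (x axis), for the 9 sensor and adaptor genes (red) and the genes of each surrounding list (blue) with at least 20 summed counts, their number in brackets (y axis). Black bars are list medians and dashed lines mark 2-fold; points are spread vertically only for legibility. Most list medians lie near 0, and the labelled genes are those past 1.5-fold.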

How the data were processed

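RNA sequencing gave 1 library per condition. Per the labels' protocols, total RNA went into a NEBNext Ultra RNA library kit for NovaSeq sequencing. The authors deposited raw counts, whole reads per gene symbol, made with Trimmomatic, FastQC, STAR and HTSeq on mm10, per the submitters' processing notes. Their versions, the annotation, the strand setting and how multi-mapped reads were handled are not given in the sources used here. Without strand, overlapping genes on opposite strands cannot be separated.

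Counts were scaled to CPM by TMM, a trimmed mean of log ratios (edgeR 4.0.16, R 4.3.3). Ratios, Clopper-Pearson and Poisson intervals used Python 3.11.15 with scipy 1.17.1, and cover counting error only, since PCR copies are not independent molecules. The steps were tested on simulated data. Lengths, coordinates and exon overlaps came from GENCODE M21 (GRCm38, the assembly that mm10 names), in which Mb21d1 is Cgas. Windows at start sites came from RefSeq (GRCm38.p6).

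The members, lists, rules and alternatives were chosen with earlier results of these data known. The values of 2 list genes are not reported here, and these genes were left out of the lists. Named genes are all 9 members and, in each list, each gene past 2-fold and the highest and lowest log2 ratio with at least 20 summed counts. Col2a1, Lyz2, Cd79a, Ifnb1 and Ifnz were picked as examples with their values known. The alternatives tried were DESeq2 1.42.0 size factors, total counts, upper-quartile factors, other count and fold limits, a prior count of 2, list means, transcript length and motif spacing.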

Additional observations from a re-analysis of the deposited data

How the results depend on the processing

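The log2 ratio of each of the 9 genes moved by at most 0.04 with total counts, DESeq2 size factors, upper-quartile factors or a prior count of 2, and kept its direction. With total counts the interval of Mavs also lay above 0 and that of Trex1 no longer lay below 0. Lowering the limit to 1.5-fold took the members called lower from 0 to 4, or 3 with total counts, an alternative chosen after seeing the data. On the surrounding lists it gave 1 higher and 3 lower genes, and at 3-fold 0 were lower. Over all genes, 309 were higher and 313 lower at 1.5-fold, 44 and 36 at 3-fold, and 20 and 38 with at least 100 summed counts. With no count filter 201 were higher and 183 lower. Without Trex1 and Adar, also chosen after seeing the data, the median of the remaining members was -0.59 in place of -0.30. No paired analysis was possible because each condition has 1 library. One library per condition leaves the spread between cultures unknown, which limits every difference, and Zbp1 and Mb21d1 are the least precise members by depth.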

Other observations

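The 3 subunit genes of ribonuclease H2, chosen after their values were seen, all had counting intervals above 0. So did 20.1% of all genes tested and 41.7% of the list of other nucleases that holds them, at depths that were not matched. Ribonuclease H2 removes ribonucleotides from DNA and the RNA strand of RNA-DNA hybrids. Rnaseh2a was counted 480 times in the control and 580 times in the treated library (log2 ratio 0.39, 0.21 to 0.57), Rnaseh2b 379 and 424 (0.28, 0.08 to 0.48) and Rnaseh2c 440 and 617 (0.60, 0.43 to 0.79). The nuclease gene Trex1 and the dNTP-degrading enzyme gene Samhd1 (6416 and 5382 counts, -0.14), also chosen after its value was seen, were on the other side of 0. Among macrophage markers, Fcgr1, a receptor for immunoglobulin G, stood lowest at -0.61 (323 and 195 counts), while Itgam was highest at 0.45 (465 and 585). Chondrocyte markers ran from -0.75 for the matrilin gene Matn3 (71 and 39 counts) to 0.16 for Snorc (63 and 65). Fibroblast markers ran from -0.51 for Postn to 0.31 for Pdgfra. Kdr, the 1 endothelial marker with at least 20 summed counts, was at -0.43 (54 and 37 counts). Its counting interval of -1.07 to 0.20 included equal expression.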
